A study of Mus musculus with 6 samples.

Results

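The 10 genes described here encode the cytosolic heat shock proteins of the mouse and the transcription factor that induces them: *Hsf1*, *Hspa1a*, *Hspa1b*, *Hspa8*, *Hsp90aa1*, *Hsp90ab1*, *Hsph1*, *Dnajb1*, *Hspb1* and *Cryab*. They were taken by symbol from a table of 28987 genes measured by RNA-seq in EGFP+ activated fibroblasts, which were sorted from cardiac ventricles 4 weeks after TAC (transverse aortic constriction), an operation that narrows the aorta and so loads the left ventricle with pressure. The 6 libraries are 3 control and 3 labelled Hsp47-deleted, and whether a library holds cells of 1 mouse or of pooled mice is not stated. All mice carried a tamoxifen-inducible Cre recombinase (MerCreMer, MCM) inserted at *Postn* and the *R26*-eGFP reporter, received tamoxifen, and were operated on between 8 and 10 weeks of age. Mice labelled Hsp47-deleted also carried loxP-targeted *Hsp47*. Cre is made only where *Postn* is active, so deletion is limited to activated fibroblasts and their lineage, and the EGFP sort takes the cells in which Cre has acted. All mice were males of the C57BL/6 background, and whether the controls carried loxP sites is not stated in their labels. The labels place control replicates 3 and 4 (C3 and C4) in the same run, here called the first run. Control replicate 2 (C2) and replicates 1, 2 and 3 labelled Hsp47-deleted (H1, H2 and H3) belong to another, the second run. The labels do not say what kind of run is meant or which came first. It is taken here to be a sequencing run.

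Heat shock proteins are chaperones that bind unfolded protein, keep it from aggregating and help it refold. In unstressed cells HSF1 is held inactive, in part by Hsp70 and Hsp90; when unfolded protein draws these chaperones away, HSF1 forms trimers and binds heat shock elements, which are repeats of the letters GAA in alternating orientation in the promoters of its targets. Hsp70 proteins (*Hspa1a*, *Hspa1b* and *Hspa8*) work in a cycle with a J-domain protein such as *Dnajb1* and an exchange factor such as *Hsph1*, Hsp90 (*Hsp90aa1*, *Hsp90ab1*) takes over clients at a later stage, and the small heat shock proteins (*Hspb1*, *Cryab*) hold unfolded protein without using ATP. Hsp47 itself, the collagen chaperone encoded by *Serpinh1*, resides in the endoplasmic reticulum (ER) and is not one of these 10 genes.

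RefSeq promoter windows (build GRCm38.p6, 250 bases before to 50 bases after a start site) were at hand for 5 of the 10 members, *Hspa1a*, *Hspa1b*, *Hsph1*, *Dnajb1* and *Hspb1*. They were searched for the paired GAA units GAANNTTC and TTCNNGAA, each of which is its own reverse complement, and for triple sites, made by adding NNGAA to the end of the first pair or NNTTC to the end of the second, which are each other's reverse complement and contain both pairs. A pair was found for 4 of the 5 members. Of the 32851 windows searched over all genes, which leave out 1 chromosome, 15.1% hold at least 1 pair. A triple was found for *Hsph1*, and 0.603% of the searched windows hold a triple. The windows of *Hspa1a* (minus strand, printed here as chr17:34972157-34972406), *Hspa1b* (minus strand, chr17:34959239-34959488), *Hspb1* (plus strand, chr5:135887669-135887918) and *Hsph1* (minus strand, chr5:149636337-149636586) are shown because they hold a pair. Each is given from its 5′ end up to the base before the start site, with the letters of a pair in capitals.
Hspa1a: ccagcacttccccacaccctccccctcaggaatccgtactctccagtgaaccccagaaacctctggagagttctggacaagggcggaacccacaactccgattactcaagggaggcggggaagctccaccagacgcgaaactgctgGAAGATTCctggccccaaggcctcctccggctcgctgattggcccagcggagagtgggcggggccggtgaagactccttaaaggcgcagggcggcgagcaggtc
Hspa1b: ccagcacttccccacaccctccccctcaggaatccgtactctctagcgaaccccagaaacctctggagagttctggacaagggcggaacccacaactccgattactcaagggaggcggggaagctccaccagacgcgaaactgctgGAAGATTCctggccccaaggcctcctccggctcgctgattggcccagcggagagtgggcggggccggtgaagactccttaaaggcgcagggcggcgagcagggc
Hspb1: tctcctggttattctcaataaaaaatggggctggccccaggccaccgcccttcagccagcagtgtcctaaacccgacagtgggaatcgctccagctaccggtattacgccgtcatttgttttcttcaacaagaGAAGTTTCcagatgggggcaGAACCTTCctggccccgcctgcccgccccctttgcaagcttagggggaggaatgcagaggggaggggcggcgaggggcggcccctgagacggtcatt
Hsph1: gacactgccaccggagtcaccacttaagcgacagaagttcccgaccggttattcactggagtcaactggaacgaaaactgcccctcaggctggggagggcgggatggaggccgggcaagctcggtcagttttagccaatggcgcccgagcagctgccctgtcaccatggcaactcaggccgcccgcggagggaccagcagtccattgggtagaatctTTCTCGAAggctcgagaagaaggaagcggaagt
Counted from 1 at the 5′ end of a window, the pair GAAGATTC begins at position 147 in both *Hspa1a* and *Hspa1b*. Over these 250 bases the promoters of *Hspa1a* and *Hspa1b* are 98.8% identical, and the 3 differences, with the *Hspa1a* base first, are C44T, T47C and T249G, all outside the pair. *Hspb1* holds GAAGTTTC at position 134 and GAACCTTC at position 154. *Hsph1* holds TTCTCGAA at position 218, and after the start site the triple TTCTGGAAAGTTC at position 287, in which the pairs TTCTGGAA and GAAAGTTC overlap. No pair was found in the windows of *Dnajb1*. A match is a description of letters and not a measured binding site.

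The deposited values are log2(value + 1) with an unnamed linear unit, so the levels of different genes are not compared with each other, and the number of reads behind a value is unknown. *Serpinh1*, the gene targeted for deletion, had log2 values of 6.28, 6.10 and 7.60 in C3, C4 and C2, and of 6.87, 6.67 and 6.66 in H1, H2 and H3. Its groups overlapped over all 6 libraries (log2 fold change 0.072, standard error 0.43, limma, adjusted p = 0.947), and within the second run it was lower in all 3 libraries labelled Hsp47-deleted, by a difference of -0.87. Groups and directions are therefore given by their labels throughout. These are RNA values of the whole gene. At the protein level, the paper reports efficient loss of Hsp47 from a Western blot of sorted EGFP+ cells. Over all 15109 tested genes the log2 fold change had a median of 0.35, and of 0.29 against C2 alone. Genes of the mitochondrial genome took 23.5% to 29.4% of the summed linear values in the controls and 4.70% to 7.23% in H1 to H3. The fibroblast markers were measured at 12 of 12, none at 0 in any library, with summed linear values from 9820 to 13100 in the controls and between 15800 and 17600 in the other group. Of the 12 markers, 10 had a higher mean in H1 to H3. The sum hides *Postn*, with linear values from 56.9 to 68.5 in the controls and from 1190 to 1450 in H1 to H3. It was the 1 marker with a limma adjusted p under 0.05 (adjusted p = 0.00337), and its log2 difference from C2 was 4.24. In bulk RNA from sorted cells, fewer cells of a type and less RNA per cell cannot be told apart.

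All 10 members had a higher mean in H1 to H3 than in the controls, as did 74.5% of all tested genes, and the members' median log2 fold change was 0.84. Of these, *Hspa1b*, *Hspb1*, *Hspa1a*, *Cryab*, *Hsp90ab1* and *Hsf1* had an unadjusted p under 0.05 in limma, which is 6 of 10 members against 14.5% of all tested genes in the same direction. None of the 10 passed at a BH-adjusted p under 0.05, a threshold that 37 genes (0.245%) passed. Without C3 the first count was 3 of 10 (6.04% of all genes in either direction), and without C2, where run and label coincide, it was 7 (35.1% of all genes), and 4 members passed after adjustment, as did 18.3% of all genes. The groups did not overlap at 7 of the 10 members, all higher, as at 18.3% of all genes. C2 shares its run with the libraries labelled Hsp47-deleted. Against C2 the mean was again higher for 10 of 10 members and for 71.8% of all genes. The median difference over the members was 0.74. Both comparisons share C2 and H1 to H3. At 9 members, all but *Dnajb1*, each of the 3 libraries labelled Hsp47-deleted lay above that control, as was the case for 46.7% of all genes. That run holds 1 control, so limma with run as a covariate borrows the spread within the groups and runs. In that fit 3 members had an unadjusted p under 0.05, *Hsph1*, *Hspa1b* and *Hsf1*, against 5.46% of all genes in the same direction, and none passed after adjustment (0.331% of all genes did).

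Genes in general were also higher in H1 to H3. With each library centred on its median, the median of all genes moved to -0.060 and that of the members to 0.42. In that scaling *Hspa1b* and *Hspb1* kept an unadjusted p under 0.05 (2 of 10 members, against 4.73% of all genes higher), while *Hsp90aa1* and *Hsph1* turned to values of -0.070 and -0.27. Rescaling each library to its values outside the mitochondrial genome gave a member median of 0.36, beside -0.048 for all genes. The part of the mitochondrial share in the pooled differences was not tested beyond this rescaling. That share was 28.0% in C2 and 4.70% to 7.23% in H1 to H3, so it also differs within the second run. The differences from C2 given here are neither centred nor rescaled.

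**Figure D1:**
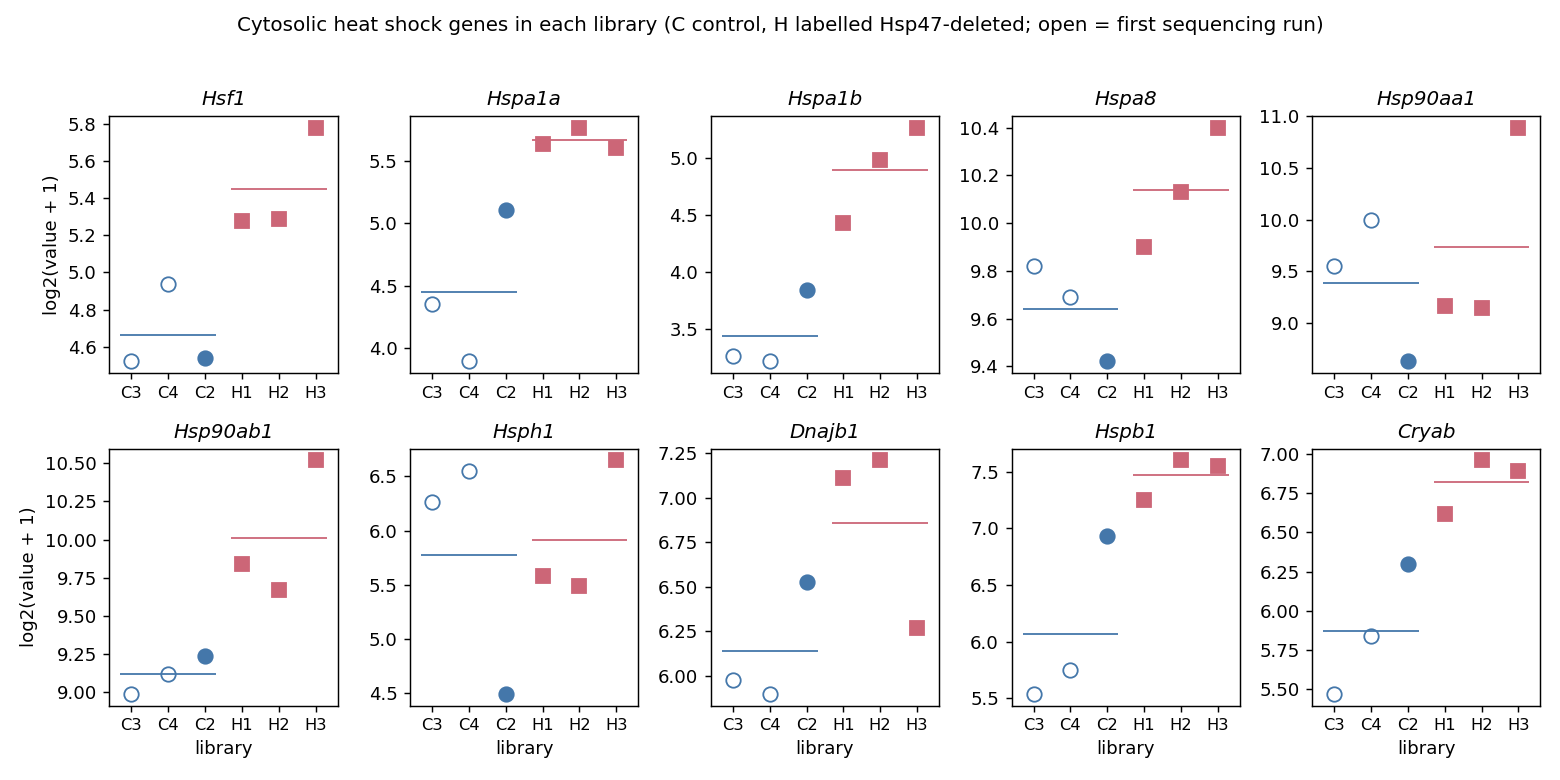
Log2(value + 1) of the 10 genes in each of the 6 libraries, 1 panel per gene with its own vertical scale. Circles are controls (C3, C4, C2), squares are libraries labelled Hsp47-deleted (H1, H2, H3), open symbols mark the first sequencing run, and horizontal lines are group means of 3 libraries. C2 lies above the other controls for *Hspa1a*, *Hspb1* and *Cryab* and below them for *Hsp90aa1* and *Hsph1*.

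*Hsf1* (chromosome 15 from 76477422 to 76501913, plus strand, GENCODE M21 of GRCm38), the regulator of the response, had log2 values of 4.52, 4.94 and 4.54 in C3, C4 and C2. In H1, H2 and H3 the values were 5.28, 5.29 and 5.78. The 3 controls lay below the 3 libraries labelled Hsp47-deleted, and the control of the second run was within the range of the other controls. The means were 4.66 ± 0.24 and 5.45 ± 0.28 (SD, n = 3 each). Its log2 fold change was 0.78 (standard error 0.30, 1.72-fold, limma, unadjusted p = 0.0307, adjusted p = 0.306), and the difference from C2 was 0.91. *Hsf1* and *Hspa1b* were the members with an unadjusted p under 0.05 both without and with run as a covariate, and with it their limma adjusted p was 0.732 and 0.716. *Hsf1* RNA is a measure of the factor's transcript and not of its activation, which takes place on the protein.

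*Hspa1a* (chromosome 17 from 34969190 to 34972156, minus strand) and *Hspa1b* (chromosome 17 from 34956436 to 34959238, minus strand) are neighbouring, nearly identical genes for the inducible Hsp70. Log2 values of *Hspa1a* were 4.35, 3.89 and 5.11 in C3, C4 and C2 and 5.64, 5.77 and 5.61 in H1, H2 and H3. Those of *Hspa1b* were 3.27, 3.22 and 3.84 in the controls and 4.43, 4.98 and 5.26 in the libraries labelled Hsp47-deleted, in the same order. Neither gene's groups overlapped, and for both the control of the second run was the highest control. *Hspa1b* had the smallest p of the 10 members, with a log2 fold change of 1.45 (standard error 0.35, 95% interval from 0.65 to 2.25, limma, unadjusted p = 0.00316, adjusted p = 0.214). That of *Hspa1a* was 1.22 (standard error 0.36, limma, unadjusted p = 0.0101, adjusted p = 0.281). Against C2 the differences were smaller, at 1.05 for *Hspa1b* and 0.56 for *Hspa1a*.

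In the annotation, 70.1% of the 31-base words of *Hspa1a* transcripts and 68.1% of those of *Hspa1b* also occur in another gene, mostly in each other, so how reads were divided between them is uncertain. Their summed linear values do not depend on that division. The sum was 28.0, 22.2 and 47.0 in C3, C4 and C2, and 69.5, 84.4 and 85.3 in H1, H2 and H3. Every library labelled Hsp47-deleted was above every control, and the control of the second run was again the highest of the controls. On the log2(sum + 1) scale the means were 4.99 ± 0.54 and 6.33 ± 0.16 (SD, n = 3 each), a difference of 1.34 that gave p = 0.10 in a two-sided exact permutation test, the smallest p that 3 against 3 can give. Against C2 the difference was 0.74. *Hspa1b* made up 28.4% to 37.4% of the sum in the controls and 29.7% to 43.9% of it in the other group. These ranges overlap.

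*Hspa8* (chromosome 9 from 40800984 to 40810087, plus strand), the constitutive Hsp70 (Hsc70), is known to respond little to stress. Its log2 values were 9.82, 9.69 and 9.42 in C3, C4 and C2 and 9.90, 10.13 and 10.40 in H1, H2 and H3. The groups were separated by a narrow gap, between C3 and H1, and here the control of the second run was the lowest library. Its log2 fold change was 0.50 (standard error 0.31, 95% interval from -0.22 to 1.22, limma, unadjusted p = 0.149, adjusted p = 0.449), and the difference from C2 was 0.72. With the libraries centred, its value was near 0, at 0.083. Of its 31-base words 44.8% occur in other genes of the annotation, among them 10 predicted genes that each hold at least 5% of them and were not analysed here.

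*Hsp90ab1* (chromosome 17 from 45567775 to 45573271, minus strand), the constitutive cytosolic Hsp90, had log2 values of 8.99, 9.12 and 9.24 in C3, C4 and C2 and of 9.84, 9.67 and 10.52 in H1, H2 and H3. The controls were close together, with a mean of 9.12 ± 0.13 (SD, n = 3), and all lay below the other group, whose mean was 10.01 ± 0.45 (SD, n = 3). Its log2 fold change was 0.89 (standard error 0.34, 1.85-fold, limma, unadjusted p = 0.0308, adjusted p = 0.306) and the difference from C2 was 0.76.

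*Hsp90aa1* (chromosome 12 from 110690605 to 110702728, minus strand), the stress-inducible Hsp90, followed another order. Its log2 values were 9.55, 10.00 and 8.63 in C3, C4 and C2 and 9.17, 9.15 and 10.89 in H1, H2 and H3. The lowest library was the control of the second run and the highest was H3, while H1 and H2 lay below both controls of the first run. The log2 fold change of 0.34 was smaller than its standard error of 0.57 (limma, adjusted p = 0.785), whereas against C2 the difference was 1.11. Without H3 the log2 fold change was -0.23. Other genes hold 51.5% of its 31-base words, mainly the processed copies *Gm12346* and *Gm5844*, whose linear values stayed between 0.166 and 5.17.

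*Hsph1* (chromosome 5 from 149614287 to 149636376, minus strand), an Hsp110 that exchanges nucleotide on Hsp70, resembled *Hsp90aa1*. Its log2 values were 6.26, 6.55 and 4.49 in C3, C4 and C2 and 5.58, 5.49 and 6.65 in H1, H2 and H3. C2 was lower than the mean of the first-run controls by a difference of -1.92, more than any gap between the libraries labelled Hsp47-deleted. Over all libraries its log2 fold change was 0.14 (standard error 0.59, limma, adjusted p = 0.923). Against C2 it was 1.42, the largest such difference among the 10 members, with an unadjusted p = 0.0251 and an adjusted p = 0.667 in limma with run as a covariate. No 31-base word of *Hsph1* occurs in another annotated gene. Without C2 the log2 fold change was -0.50.

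*Dnajb1* (chromosome 8 from 83608193 to 83612653, plus strand), the J-domain protein Hsp40 that delivers clients to Hsp70, had log2 values of 5.98, 5.90 and 6.53 in C3, C4 and C2 and of 7.11, 7.21 and 6.27 in H1, H2 and H3. H3, the highest library for *Hsf1*, *Hspa1b*, *Hspa8*, *Hsph1* and both Hsp90 genes, was here the lowest of its group and lay below C2. Its log2 fold change was 0.73 (standard error 0.36, limma, unadjusted p = 0.0798, adjusted p = 0.368). Against C2 the difference was 0.33, close to the 0.29 of all genes.

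The small heat shock proteins gave some of the largest pooled differences. *Hspb1* (Hsp25, chromosome 5 from 135887919 to 135889563, plus strand) had log2 values of 5.54, 5.75 and 6.93 in C3, C4 and C2 and of 7.25, 7.60 and 7.55 in H1, H2 and H3. *Cryab* (αB-crystallin, chromosome 9 from 50751325 to 50756636, plus strand) had values of 5.47, 5.84 and 6.30 in the controls and of 6.62, 6.96 and 6.89 in the libraries labelled Hsp47-deleted, in the same order. For both genes the groups did not overlap, and C2 lay between the first-run controls and the libraries labelled Hsp47-deleted. Its log2 fold change was 1.39 for *Hspb1* (standard error 0.41, limma, unadjusted p = 0.00941, adjusted p = 0.278) and 0.95 for *Cryab* (standard error 0.32, limma, unadjusted p = 0.0173, adjusted p = 0.283). Against C2 the differences were 0.54 and 0.52. For *Hspb1* C2 was 1.28 above the mean of the first-run controls, a step larger than the one from C2 to the libraries labelled Hsp47-deleted.

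*Cryab* shares 14.8% of its 31-base words with *Hspb2*, whose transcripts overlap it, and the linear value of *Hspb2* was between 0.773 and 3.18. *Hspb1* shares 55.4% with other genes, among them *Hsp25-ps1* and *Gm9817*, which had linear values of at most 0.536 and 0.563. Both small heat shock proteins are also well known from cardiomyocytes. The cardiomyocyte markers, 16 of 18 tested, had summed linear values of 197, 166 and 405 in C3, C4 and C2 and of 346, 440 and 346 in H1, H2 and H3, with *Myl3*, *Nppb* and *Tnnc1* listed at 0 in at least 1 library. In the second run the sum of the control lay within the range of the other group, and of the 16 markers 6 were higher and 7 were lower in all 3 libraries labelled Hsp47-deleted than in C2. The part of these cells in *Hspb1* and *Cryab* was not tested.

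**Figure D2:**
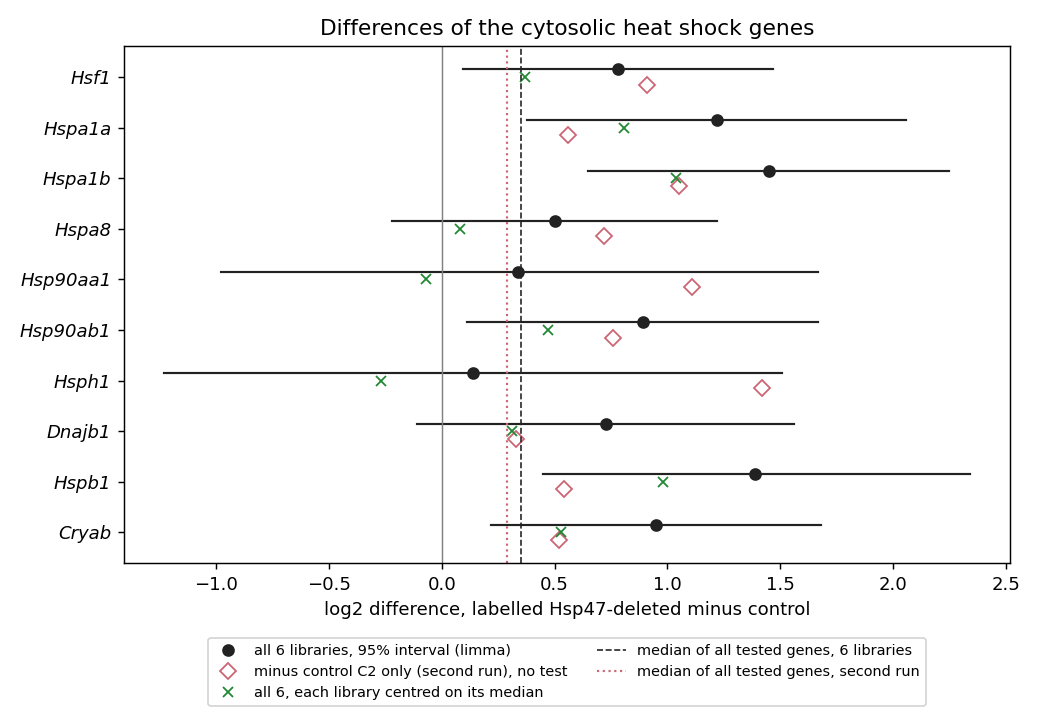
Log2 difference, libraries labelled Hsp47-deleted minus control, for each of the 10 genes. Black circles with 95% limma intervals use all 6 libraries, open diamonds use C2 as the only control and have no test, green crosses use libraries centred on their medians, and vertical lines are the medians of all tested genes (0.35 dashed, 0.29 dotted). The diamonds are right of the circles for *Hsf1*, *Hspa8*, *Hsp90aa1* and *Hsph1* and left of them for the other 6 genes.

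Side by side, the members fell into different orders across the libraries. *Hspa1a*, *Hspa1b*, *Hspb1*, *Cryab* and *Dnajb1* were higher in C2 than in the first-run controls, by 0.99, 0.60, 1.28, 0.65 and 0.59. *Hsp90aa1*, *Hsph1* and *Hspa8* were lower there, with differences of -1.15, -1.92 and -0.33, and *Hsf1* and *Hsp90ab1* changed least, with -0.19 and 0.19. As a result, the pooled comparison gives the inducible Hsp70 genes and the small heat shock proteins larger differences than the comparison within the second run, and gives *Hsp90aa1* and *Hsph1* smaller ones. Over the 10 members, each library's median deviation from the control mean was -0.14, -0.012 and 0.26 in C3, C4 and C2, and 0.73, 0.85 and 1.13 in H1, H2 and H3. These medians did not overlap between the groups, and neither did those of all tested genes. The latter were -0.13, 0.055 and 0.074 in C3, C4 and C2, and 0.32, 0.40 and 0.33 in H1, H2 and H3. The grouping of the members by their order was made after their values were seen, and no test was applied to it.

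**Figure D3:**
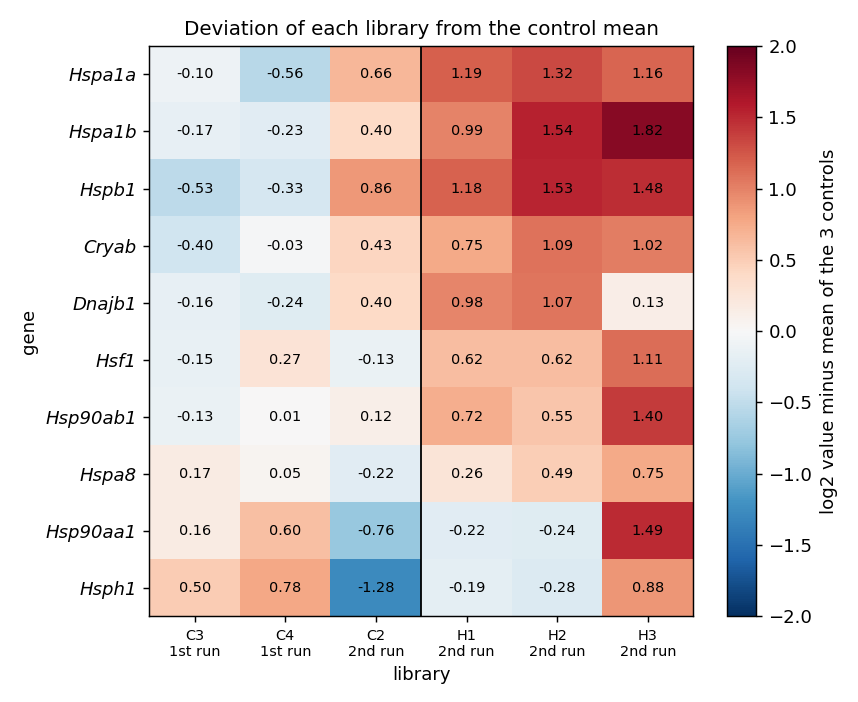
Log2 value of each gene in each library minus the mean of the 3 controls, with libraries in columns and their sequencing run (1st or 2nd) below. The upper 5 genes are above 0 in C2, the lower 3 below 0, and H3 holds the deepest red cells for *Hspa1b*, *Hsp90aa1* and *Hsp90ab1*, with deviations of 1.82, 1.49 and 1.40.

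Other chaperones and regulators were described from 9 lists of related genes, of which 85 genes were tested. Of these, 21 had an unadjusted limma p under 0.05, all higher in the group labelled Hsp47-deleted. This was 24.7% of those tested, against 14.5% of all genes, and none passed after BH adjustment. With run as a covariate the number was 4, against 6.73% of all genes in either direction. Among these was *Serpinh1*, the gene targeted for deletion, which was lower in that fit, at -0.87. With the immediate early genes described further on, 32 of 108 listed genes had an unadjusted p under 0.05. That number was 11 without C3, 14 without C4, 54 without C2, 18 without H1 and 17 without H2, where the share of all genes in either direction was 6.04%, 8.82%, 35.1%, 8.47% and 7.10%. Among the partners of Hsp70, 3 of 7 BAG proteins and other exchange factors had an unadjusted p under 0.05. *Bag3*, which links Hsp70 and small heat shock proteins to autophagy, had log2 values of 6.72, 6.82 and 6.82 in C3, C4 and C2 and of 7.47, 8.44 and 8.80 in H1, H2 and H3. Its controls were nearly equal in both runs, so its log2 fold change of 1.45 (standard error 0.39, limma, adjusted p = 0.255) changed little against C2, where it was 1.41. *Bag6*, which guards membrane proteins on their way to the ER, had a log2 fold change of 1.12 (limma, adjusted p = 0.274) and 0.92 against C2. The *Bag3* promoter window holds a paired GAA unit and that of *Bag6* holds none.

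Of the other cytosolic Hsp70 and Hsp110 genes, 1 of 6 tested had an unadjusted p under 0.05, against 14.5% of all genes in the same, higher direction. This was *Hspa2*, an Hsp70 best known from male germ cells, with log2 values of 3.49, 3.31 and 4.04 in C3, C4 and C2 and of 4.96, 5.14 and 5.14 in H1, H2 and H3. The libraries labelled Hsp47-deleted were all above the controls (log2 fold change 1.46, standard error 0.31, limma, adjusted p = 0.158), and the difference from C2 was 1.04. *Hspa4l*, an Hsp110 relative, had a log2 fold change of 0.43 with overlapping groups. Among the other J-domain proteins 2 of 12 had an unadjusted p under 0.05, against the same 14.5% of all genes. They were *Dnajc7* and *Dnaja4*, with log2 fold changes of 0.91 and 0.81 and differences from C2 of 0.47 and 0.79. The median of that list was 0.18, below the 0.35 of all genes, but 0.51 within the second run.

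The Hsp90 co-chaperones, the longest chaperone list, also had the highest count of these lists. Of the 18, 8 had an unadjusted p under 0.05, all higher, against 14.5% of all genes in that direction. The list's median log2 fold change was 0.74. *Fkbp4*, an immunophilin of the steroid receptor complex, had log2 values of 2.51, 2.50 and 4.01 in C3, C4 and C2 while H1 to H3 lay between 4.37 and 4.61. *Cdc37*, which brings kinases to Hsp90, had values of 2.51, 2.80 and 4.55 in the controls, below the 4.79 to 5.10 of the other group. For both genes C2 lay close to the libraries labelled Hsp47-deleted, so that the pooled log2 fold changes of 1.48 and 1.70 (limma, adjusted p = 0.282 for each) stood beside differences of 0.47 and 0.44 within the second run. There the list's median was 0.40. With run as a covariate, none of the 18 had an unadjusted p under 0.05, against 6.73% of all genes in either direction.

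Of 8 other small heat shock proteins listed, 5 were tested, and *Cryaa* was listed at 0 in every library. *Hspb7*, known from heart muscle, was the 1 gene with an unadjusted p under 0.05, against 14.5% of all genes in the same direction. Its log2 values were 1.76, 1.72 and 3.73 in C3, C4 and C2 and 3.73, 4.50 and 3.39 in H1, H2 and H3, so its groups overlapped and the difference within the second run was 0.15. *Hspb6*, also known from muscle, had a log2 fold change of 0.87 and a difference of 0.17 within the second run. The list median was 0.61 over all libraries and 0.081 within the second run, whereas that of the 10 members was 0.84 and 0.74.

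Chaperones outside the heat shock families included 13 tested subunits of the TRiC chaperonin and prefoldin, which fold actin and tubulin. Of these 2 had an unadjusted p under 0.05, against 14.5% of all genes in the same direction. They were the prefoldin subunits *Pfdn5* and *Pfdn1*, with log2 fold changes of 1.86 and 1.38 but differences of 0.28 and 0.23 within the second run. None of 7 mitochondrial chaperones had an unadjusted p under 0.05, and *Hspe1* (Hsp10) and *Trap1* (the mitochondrial Hsp90) had the smallest p, with log2 fold changes of 0.90 and 0.61. Of 14 ER chaperones, *Serpinh1* included, 4 had an unadjusted p under 0.05, all higher, against the same 14.5% of all genes. *Canx*, the membrane-bound lectin chaperone of the ER, had log2 values of 6.82, 6.95 and 7.66 in C3, C4 and C2 and of 9.28, 8.64 and 9.38 in H1, H2 and H3. Its groups were well apart (log2 fold change 1.95, standard error 0.36, limma, adjusted p = 0.114), also within the second run, where the difference was 1.44. *Calr*, its soluble relative, had a log2 fold change of 0.86 and a difference of 0.59 within the second run. The ER list's median of 0.39 was close to that of all genes.

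Among heat shock transcription factors and their regulators, 3 of 5 were tested and none had an unadjusted p under 0.05. *Hsbp1*, which binds HSF1 trimers, had a log2 fold change of 0.48 and a difference of -0.085 within the second run, and its relative *Hsbp1l1* had 0.21 and 1.39. 

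**Figure D4:**
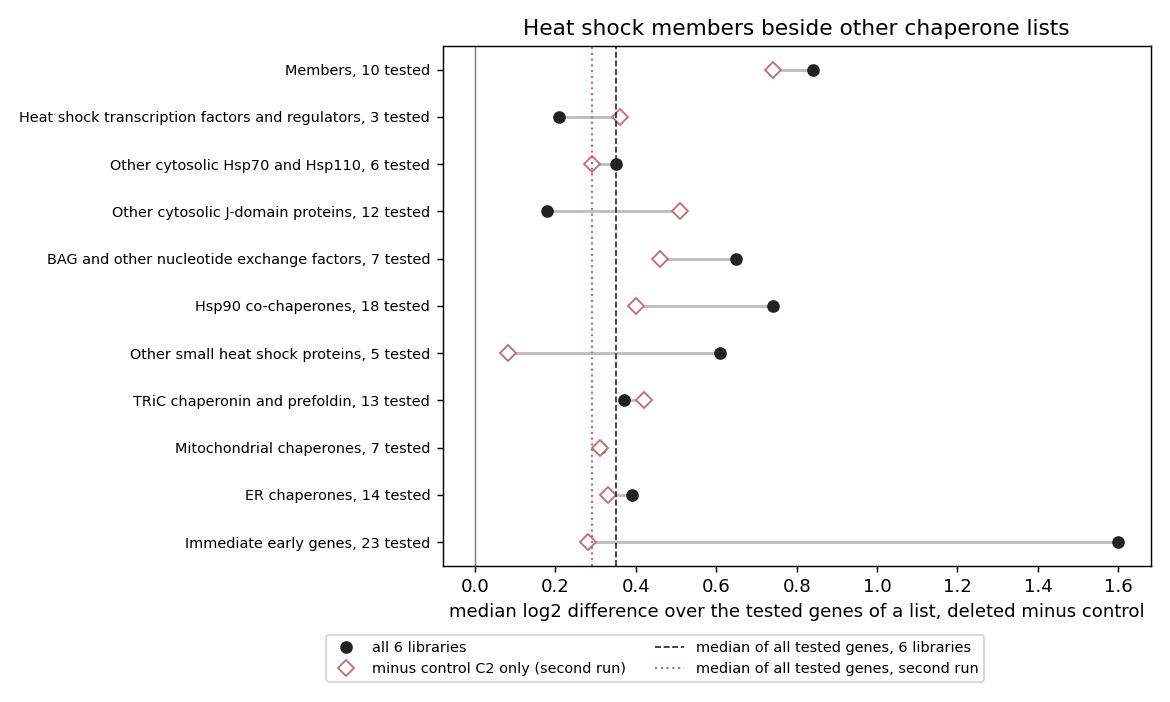
Median log2 difference of the 10 members and of 10 other lists, with the number of tested genes of each. Black circles use all 6 libraries and open diamonds use C2 as the only control; vertical lines are the medians of all tested genes (0.35 dashed, 0.29 dotted). The members have the rightmost diamond, at 0.74, and the immediate early genes the widest gap between both symbols, from 1.60 to 0.28.

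Immediate early genes, which cells switch on within minutes of many stimuli, are given beside the members because their level also differed between runs. Their summed linear values were 3060, 2800 and 8040 in C3, C4 and C2 and 11100, 13800 and 6920 in H1, H2 and H3. C2 thus lay above both first-run controls and above H3. Of 23 tested, 11 had an unadjusted p under 0.05, all higher, against 14.5% of all genes in that direction. The list's median log2 fold change was 1.60 over all libraries and 0.28 within the second run. *Egr2* and *Klf4*, both zinc finger transcription factors, had the smallest p, with log2 fold changes of 1.98 and 1.57 and differences of 1.27 and 0.66 within the second run. *Dnajb1*, like this list, was lowest of its group in H3, whereas *Hsf1*, *Hspa1b* and the Hsp90 genes were highest there. The part of this list in the members' values was not tested.

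Markers of other cells that a sort could carry over were measured in the same libraries. Endothelial markers (10 of 10 tested, none at 0) summed to between 95.8 and 274 in the linear unit in the controls and to between 173 and 266 in H1 to H3. Leukocyte markers, 7 of 10 tested, summed to between 38.9 and 104 in the controls and between 112 and 142 in the other group, and *Ptprc*, which defines leukocytes, was listed at 0 in every library. Mural markers (8 of 8 tested) summed to between 169 and 294 against 129 and 194. The leukocyte sums did not overlap between the groups, as was the case for 7 of the 10 members. C2 had the highest control sum, 104, and within the second run the list's median difference was 0.18, beside 0.29 for all genes. The part of these markers in the members' differences was not tested.

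By a fixed rule, the 5 genes outside the members whose log2 values followed the members' mean profile most closely over the 6 libraries were *Actn4* (Pearson r = 0.997), *Ykt6* (0.997), *Hmgb2* (0.992), *Tnks* (0.991) and *Adipor1* (0.989), out of 6484 genes considered. The mean profile itself was -0.50, -0.39 and -0.37 in C3, C4 and C2 and 0.21, 0.35 and 0.70 in H1, H2 and H3. *Actn4*, a nonmuscle α-actinin, had log2 values of 6.18, 6.30 and 6.33 in C3, C4 and C2 and of 7.08, 7.39 and 7.71 in H1, H2 and H3. Its controls were alike in both runs (log2 fold change 1.12, standard error 0.29, limma, adjusted p = 0.251). These r values describe 6 libraries that share their group and run with the members' profile, and the highest of 6484 values are high by selection.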

How the data were processed

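RNA of EGFP+ cells was amplified and sequenced (HiSeq2500) in 6 libraries. The authors deposited log2(value + 1) for 28987 genes per library, with an unnamed linear unit; kallisto and mm10 are named, without versions, in the submitters' processing notes, and AltAnalyze in the study's methods. The same table holds the authors' group means, folds and p-values, which were not used. The depth per library is unknown. Samples were grouped by their genotype labels.

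Values were tested as deposited (pseudocount 1) with limma 3.58.1 in R 4.3.3 (lmFit, eBayes with a mean-variance trend, no covariate) for 15109 genes (linear mean over the libraries 1 or more), and p-values were adjusted over all of them by the Benjamini-Hochberg (BH) method. All 10 members passed this filter. A 31-base word was called shared where a GENCODE M21 transcript of another gene holds it. The fit was checked on simulated data with independent values, no run effect and no shift of genes in general. That check therefore cannot speak to run or to such a shift in the real libraries.

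Named genes are the 10 members, *Serpinh1*, the 2 genes with the smallest p of each list, and the 5 genes (mean of at least 10, no predicted genes) closest to the members' mean profile. Members, lists and tests were chosen with earlier results of these data known. Lists were counted, not tested. Alternatives were sequencing run as a covariate, the second run alone, a replicate block, no filter, a minimum mean of 5, other pseudocounts (0.1 and 5), centring, quantile normalization, rescaling outside the mitochondrial genome, no trend, and leaving out each library. p-values measure the spread between these libraries.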

Additional observations from a re-analysis of the deposited data

How the results depend on the processing

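With no filter, a minimum mean of 5, another pseudocount (0.1 or 5) or no trend, the count of members with an unadjusted p under 0.05 stayed at 6. The count of members was 3 with sequencing run as a covariate, and 2 with centring, quantile normalization or rescaling outside the mitochondrial genome (6.73% of all genes with the covariate, and 8.21%, 8.37% and 7.99% under the scalings). Under those 3 scalings the members' median was 0.42, 0.42 and 0.36, and the number with groups that did not overlap was 4, 3 and 3 (13.8%, 13.8% and 13.1% of all genes). The count over all 10 other lists, immediate early genes included, was 32. It was 5 with run as a covariate, *Serpinh1* (lower) among them, and 13, 12 and 12 under the scalings. The summed *Hspa1a* and *Hspa1b* difference of 1.34 was 0.74 in the second run alone. Leaving out 1 library gave from 3 to 7 members at an unadjusted p under 0.05 (3 without control replicate 3, against 6.04% of all genes), from 0 to 4 after adjustment, and from 11 to 54 listed genes. The 4 members, *Hspa1a*, *Hspa1b*, *Hspb1* and *Cryab*, passed without control replicate 2, where run and label coincide and 18.3% of all genes passed. The listed genes numbered 11, 14 and 54 without control replicates 3, 4 and 2, and 18 and 17 without Hsp47-deleted replicates 1 and 2.

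Signs turned for 6 named genes. With run as a covariate *Serpinh1* was -0.87 and *Hsbp1* -0.085. With centring, quantile normalization and rescaling, in this order, *Serpinh1* was -0.34, -0.27 and -0.41, *Hsp90aa1* -0.070, -0.13 and -0.14, *Hsph1* -0.27, -0.18 and -0.34, and *Hsbp1l1* -0.20, -0.19 and -0.13, while rescaling gave -0.0011 for *Hsbp1* and -0.024 for *Hspa4l*. Leaving out 1 library gave from -0.21 to 0.54 for *Serpinh1*, from -0.23 to 0.65 for *Hsp90aa1*, from -0.50 to 0.53 for *Hsph1* and from -0.38 to 0.71 for *Hsbp1l1*. The cause was not tested.

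Replicate numbers 2 and 3 occur in both groups, but the labels do not say that a number pairs mice. The deviations of same-numbered libraries had r = 0.16 and r = 0.23, within the range of -0.42 to 0.38 of differently numbered ones. With a replicate block, 5 members and 22 listed genes had an unadjusted p under 0.05, as did 10.2% of all genes. In that fit 0 members passed after adjustment, the members' median was 0.97 beside 0.41 for all genes, and *Serpinh1* was -0.28. C4 and H1 have no same-numbered library in the other group. The group difference of that fit therefore rests on C2 with H2 and on C3 with H3, and C3 and H3 belong to different runs.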
